A study of Homo sapiens with 11 samples.

Results

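The genes of fatty acid oxidation and the peroxisome were chosen by name as 40 genes in 8 roles, from the carnitine shuttle to fatty acid uptake, and all 40 were found by symbol and Ensembl identifier among the 58288 genes of the RNA-seq data and the 19645 protein-coding genes joined to the GRCh37 annotation. The study mapped histone marks and RNA in HK2, an immortalised line of human proximal tubular epithelial cells. All samples came from HK2 cells under 1 condition, in DMEM-F12 medium with fetal bovine serum, penicillin-streptomycin and DMSO, so no treatment was compared. ChIP-seq of H3K4me3, a mark of promoters, of H3K27ac, a mark of active promoters and enhancers, and of H3K27me3, a mark of repressed chromatin, had 2 replicates each, and RNA-seq of rRNA-depleted RNA had 2 libraries. The samples of input DNA and of HiChIP are not used here.

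Fatty acids are activated to acyl-CoA, carried into mitochondria as acylcarnitines and shortened by repeated cycles of beta-oxidation, whose electrons pass through the electron transfer flavoprotein to the respiratory chain. Peroxisomes shorten very long and branched chains and break down the hydrogen peroxide this produces. Proximal tubule cells of the kidney are known to draw much of their energy from fatty acids, and PPARGC1A is a coactivator of genes of this pathway.

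HK2 cells expressed most of these genes. RNA levels are given as FPKM, sequenced fragments scaled by transcript length and by library size, summed over the transcripts of a gene, and a gene was counted as expressed where both libraries gave an FPKM of 1 or more. By this rule 33 of 40 genes were expressed, 82.5%, beside 58.8% of all protein-coding genes. Their median FPKM was 11.43, with 11.07 and 11.79 in the single libraries, beside 3.325 for all protein-coding genes. The 7 genes below the limit were ACADL, ACSL6, ACOX2, PPARGC1B, FABP1, FABP3 and CD36. The libraries differed little, since for 30 of the 33 expressed genes the values of the libraries lay within 1.2-fold, with a median of 1.06-fold over the 33. A single expressed gene, CPT1B, differed by over 1.5-fold, beside 5.93% of protein-coding genes of this level.

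Start sites mostly carried the marks of promoters. A gene was counted as marked where a peak of both replicates lay within 1 kb of an annotated transcription start site (TSS). H3K4me3 marked 34 of 40 genes, beside 70.3% of all protein-coding genes, and H3K27ac marked 24, beside 55%, which is close to their own 60%. H3K27me3 marked 4 genes, 10% beside 11.4%. All 4 had H3K4me3 as well, so genes with both marks were 10% of the 40, beside 7.02% of all protein-coding genes. The 23 genes with H3K4me3 and H3K27ac but no H3K27me3, here called active, compare with 52.2% of all protein-coding genes. The genes had a median of 9 annotated TSS positions, beside 5 for all protein-coding genes, and so more windows in which a peak could fall.

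The labelled cell type was checked with marker genes. Of 8 epithelial markers 7 were expressed, led by KRT8, KRT19 and PAX8, with summed FPKM of 643.1 and 622.9. The marker below the limit was the cadherin CDH1, at 0.210 and 0.283, while the cadherin CDH2, counted among the 7, had 59.3 and 59.7. Of 12 proximal tubule markers 4 were expressed, led by GGT1, GPX3 and MIOX, with summed FPKM of 96.25 and 79.92, and 4 were listed at 0, among them the endocytic receptor LRP2. The genes of the loop and distal nephron (0 of 5), endothelium (0 of 3 found) and immune cells (0 of 4) were below the limit. Podocyte markers were expressed in 2 of 4 cases, at summed FPKM of 19.13 and 22.02, and hepatocyte markers in 1 of 4, SERPINA1, with summed FPKM of 16.33 and 12.64. In a bulk sample, fewer cells of a type and less RNA per cell cannot be told apart. The RNA-seq libraries held 4.539 and 4.423 Gb aligned to annotated transcripts.

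**Figure D1:**
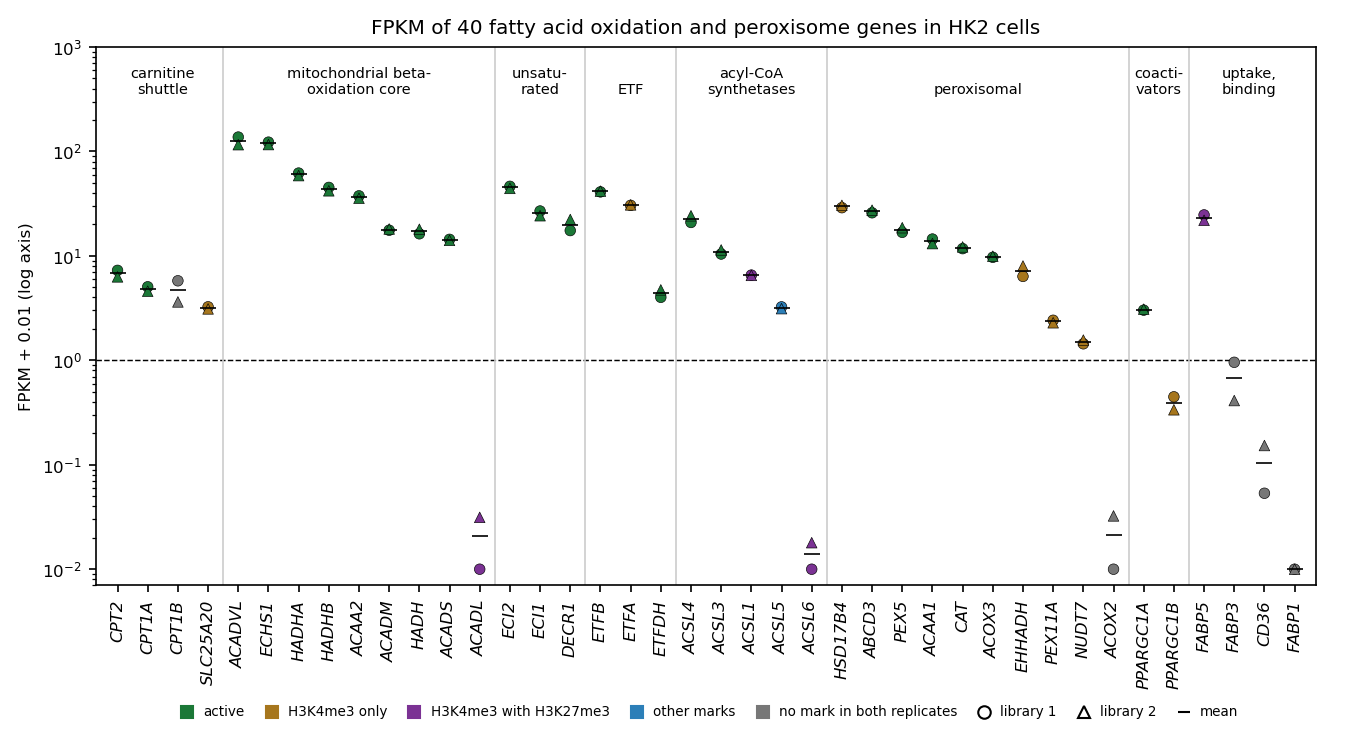
FPKM of each gene in RNA-seq library 1 (circles) and library 2 (triangles), with the mean as a bar, on a log axis after adding 0.01 so that values of 0 can be drawn. Colours give the marks at the start site and the dashed line the FPKM limit of 1. The libraries overlap or nearly overlap for most genes, and the 7 genes under the line sit in the beta-oxidation core, the acyl-CoA synthetases, the peroxisomal genes, the coactivators and the uptake and binding genes.

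The start-site sequences below show how widely CpG content varied among these genes, with and without peaks. They were read from GRCh37, run 5′ to 3′ on the strand of the gene, lie outside annotated exons, and have each CpG in capitals. HADHA and HADHB share 1 start region with H3K4me3 and H3K27ac. CPT1A has H3K4me3 of both replicates over this start and H3K27ac near it in replicate 1 alone. PPARGC1A has H3K4me3 of both replicates over its start, and ACSL6 has H3K4me3 with H3K27me3. FABP1 and ACOX2 have no peak within 1 kb.
HADHA and HADHB, chr2:26467541-26467615, minus strand: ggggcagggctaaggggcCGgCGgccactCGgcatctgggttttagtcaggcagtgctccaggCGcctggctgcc
CPT1A, chr11:68609400-68609599, minus strand: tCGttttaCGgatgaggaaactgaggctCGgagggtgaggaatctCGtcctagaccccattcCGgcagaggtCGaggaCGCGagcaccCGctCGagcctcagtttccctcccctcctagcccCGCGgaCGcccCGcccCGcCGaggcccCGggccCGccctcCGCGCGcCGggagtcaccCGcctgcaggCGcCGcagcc
PPARGC1A, chr4:23891701-23891754, minus strand: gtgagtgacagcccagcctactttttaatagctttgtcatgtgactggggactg
ACSL6, chr5:131347352-131347462, minus strand: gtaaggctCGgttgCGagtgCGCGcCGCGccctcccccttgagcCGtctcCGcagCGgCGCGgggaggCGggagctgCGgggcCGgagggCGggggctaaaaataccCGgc
FABP1, chr2:88427582-88427781, minus strand: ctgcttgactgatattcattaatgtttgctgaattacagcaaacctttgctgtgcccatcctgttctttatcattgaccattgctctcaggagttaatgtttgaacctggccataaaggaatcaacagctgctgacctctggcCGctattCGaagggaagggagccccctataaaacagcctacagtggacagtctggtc
ACOX2, chr3:58523011-58523210, minus strand: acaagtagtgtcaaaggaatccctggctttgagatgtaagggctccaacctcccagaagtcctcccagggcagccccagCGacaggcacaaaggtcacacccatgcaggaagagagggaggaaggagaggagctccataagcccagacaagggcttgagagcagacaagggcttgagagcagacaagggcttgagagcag
The stretch of CPT1A holds 25 CpG sites in 200 bases and that of ACSL6 16 in 111, while the 200 bases of FABP1 hold 2 and those of ACOX2 hold 1. The stretch between HADHA and HADHB holds 4 in 75 bases, fewer per base than CPT1A and ACSL6 and more than FABP1 and ACOX2. Against this order, that of PPARGC1A holds 0 in 54, although its start has peaks. The FABP1 stretch ends at its start site and carries the letters TATAAA.

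By FPKM summed over all transcripts, the carnitine shuttle was expressed throughout, at low to middle levels. CPT1A, which makes acylcarnitines at the outer mitochondrial membrane, lies on chromosome 11 from 68522088 to 68611878 (ENSG00000110090) and had FPKM of 5.05 and 4.58. CPT2, which turns them back into acyl-CoA at the inner membrane, had 7.26 and 6.29. The carrier SLC25A20 was lower, at 3.24 and 3.10. CPT2 lay above CPT1A and CPT1A above SLC25A20 in both libraries, without overlap.

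CPT1B, the muscle form of the enzyme, was the gene whose libraries differed most among those expressed, with FPKM of 5.77 and 3.62, a 1.59-fold difference. In library 1 it was above CPT1A and in library 2 below it, so their order cannot be given. Transcripts annotated as protein-coding made up 51.8% of its FPKM in library 1 and 17.5% in library 2. That is 2.99 and 0.632, so by protein-coding transcripts only CPT1B fell below the limit of 1 in library 2. Its leading transcript changed from the coding CPT1B-202 to CPT1B-206, a target of nonsense-mediated decay. CPT1B (ENSG00000205560, chromosome 22 from 51007290 to 51016894) had no peak of any list within 1 kb of its 12 TSS positions. Only 2.19% of the protein-coding genes without any such peak were expressed. The nearest H3K4me3 peaks began 3.26 and 3.08 kb from its canonical start and the nearest H3K27ac peaks 3.31 and 3.67 kb. They lie on the side of CHKB, the neighbour on the same strand, which had FPKM of 11.4 and 10.1 and peaks of both marks at its start in both replicates. A read-through gene of the pair, CHKB-CPT1B, had FPKM of 1.85 and 2.60 and covers CPT1B, so reads of the 2 genes may be split between them. How far this moves the level of CPT1B was not tested.

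The beta-oxidation core held the most abundant transcripts. ACADVL, the very-long-chain acyl-CoA dehydrogenase (ENSG00000072778, chromosome 17 from 7120444 to 7128585), had FPKM of 137 and 116, and ECHS1, the enoyl-CoA hydratase, had 123 and 116. Their libraries overlapped, so neither stands above the other, and 98.2% and 98.0% of protein-coding genes had a lower mean. HADHA and HADHB, the subunits of the trifunctional protein, followed with 62.1 and 58.7 for HADHA and 45.2 and 42.0 for HADHB. The thiolase ACAA2 had FPKM of 37.6 and 35.6. ACADM, the medium-chain dehydrogenase, had 17.6 and 18.1, the hydroxyacyl-CoA dehydrogenase HADH 16.3 and 17.99, and ACADS, the short-chain dehydrogenase, 14.4 and 14.1. These 8 genes all had active start sites.

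The level of ACADVL rests largely on transcripts that are not annotated as coding. Protein-coding transcripts gave 29.3% and 32.1% of its FPKM, and the leading transcript in both libraries, ACADVL-206, is annotated as a retained intron. By protein-coding transcripts only, ACADVL had 40.2 and 37.3. That is below ECHS1 at 123 and 116 and HADHA at 61.6 and 58.3. For HADH the coding share was 51.9% and 20.5%, with HADH-201 leading in library 1 and HADH-220, a target of nonsense-mediated decay, in library 2. Over the 33 expressed genes the same transcript led in both libraries in 27 and a different one in 6, so levels are given per gene and not per transcript.

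ACADL, the long-chain dehydrogenase, stood apart from the other 3 acyl-CoA dehydrogenases. Its FPKM was listed as 0 in library 1 and as 0.0214 in library 2. Its start site (ENSG00000115361, chromosome 2 from 211051850 to 211090171) had H3K4me3 peaks of 953 and 830 bp inside H3K27me3 peaks of 4533 and 2202 bp. No H3K27ac peak lay there in either replicate. The H3K27me3 peaks covered 100% of the 2 kb around its canonical start in both replicates.

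HADHA and HADHB are transcribed away from each other from starts 307 bp apart on chromosome 2. Each of the 4 lists of H3K4me3 and H3K27ac held 1 peak over both starts. For H3K4me3, the peak of replicate 1 ran from 26465258 to 26469325 and that of replicate 2 from 26466804 to 26468502. For H3K27ac, they ran from 26465395 to 26469203 and from 26466919 to 26468158. HADHA was 1.37-fold above HADHB in library 1 and 1.40-fold in library 2, so the FPKM of the pair differed although a peak cannot be assigned to either gene. ETFDH and C4orf46 (409 bp apart), ACOX3 and TRMT44 (54 bp) and PEX11A and WDR93 (57 bp) are head-to-head pairs as well. WDR93 was at FPKM of 0.105 and 0.243, below PEX11A at 2.41 and 2.28.

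Several of these genes overlap a neighbour, and whether reads were counted by strand is not given in the sources used here. On the opposite strand, CPT2 overlaps CZIB at FPKM of 13.4 and 14.2, DECR1 overlaps NBN at 22.2 and 27.2, ETFDH overlaps PPID at 20.2 and 19.6, and ACSL5 overlaps ZDHHC6 at 26.4 and 27.1. ACADM overlaps RABGGTB, at 16.9 and 18.2, on its own strand. Without strand, reads from the shared stretches of opposite genes cannot be told apart, and each of these 4 genes had a lower FPKM than its neighbour in both libraries.

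The enzymes for unsaturated chains and the electron transfer flavoprotein were all expressed. ECI2 and ECI1, isomerases that move double bonds, had FPKM of 46.3 and 44.3 for ECI2 and 26.9 and 24.2 for ECI1. DECR1, a dienoyl-CoA reductase, had 17.5 and 22.3, a 1.28-fold difference. Of the flavoprotein subunits, ETFB had 41.0 and 41.7 and ETFA 30.5 and 30.8, so ETFB was above ETFA by 1.346-fold and 1.354-fold, without overlap. ETFDH, which hands the electrons on to ubiquinone, was lower at 4.0005 and 4.72, and ETFA was above it by 7.61-fold and 6.52-fold. All but ETFA had active start sites.

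The long-chain acyl-CoA synthetases, which activate fatty acids, were ordered without overlap between neighbours. ACSL4, a synthetase that favours arachidonic acid, had FPKM of 20.9 and 24.2, ACSL3 10.4 and 11.4, ACSL1 6.54 and 6.49, and ACSL5 3.24 and 3.12. ACSL6 was listed at 0 and 0.00795. ACSL4 was above ACSL3 by 2.01-fold and 2.12-fold, and ACSL3 above ACSL1 by 1.59-fold and 1.76-fold. The start sites differed as well, since ACSL3 and ACSL4 were active, ACSL1 and ACSL6 carried H3K4me3 with H3K27me3, and ACSL5 had H3K27ac in both replicates but H3K4me3 in replicate 1 alone.

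ACSL1 was expressed with H3K27me3 beside its start. The H3K4me3 peaks of 1745 and 1579 bp (ENSG00000151726, chromosome 4 from 185676749 to 185747972) covered the canonical start, and an H3K27ac peak of 1245 bp did so in replicate 1 only. H3K27me3 peaks lay on both sides, the nearest 350 and 331 bp away. At ACSL6 the H3K27me3 peaks of 2533 and 1184 bp spanned the start, with H3K4me3 peaks of 947 and 1001 bp inside them.

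**Figure D2:**
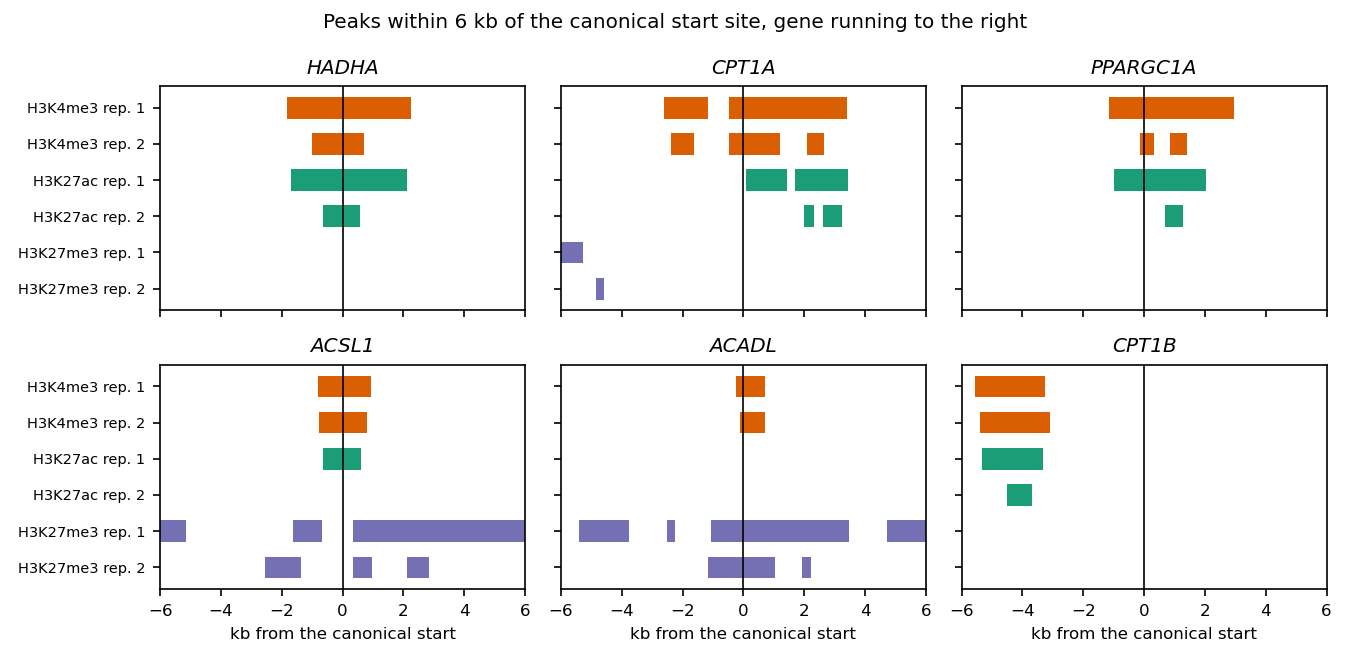
Peaks of each mark and replicate within 6 kb of the canonical start of 6 genes, as bars in kb from the start with the gene running to the right. HADHA has 1 peak over its start in each of the 4 H3K4me3 and H3K27ac lists, ACADL has H3K27me3 over its start, ACSL1 has H3K27me3 beside it, the H3K27ac peaks of replicate 2 lie inside CPT1A and PPARGC1A, and the nearest peaks of CPT1B end 3.08 kb or more before its start.

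Of the 10 peroxisomal genes 9 were expressed. HSD17B4, a multifunctional enzyme of peroxisomal beta-oxidation, had FPKM of 28.9 and 30.5, and ABCD3, a transporter of the peroxisomal membrane, 25.9 and 27.4. The import receptor PEX5 had 16.8 and 18.6, the thiolase ACAA1 14.5 and 13.1, catalase (CAT) 11.7 and 12.2 and the acyl-CoA oxidase ACOX3 9.69 and 9.92. EHHADH, another multifunctional enzyme, had 6.35 and 7.99. PEX11A, which takes part in peroxisome division, had 2.41 and 2.28, and the coenzyme A hydrolase NUDT7 1.43 and 1.55. ACOX2, an oxidase of branched chains and bile acid precursors, was listed at 0 and 0.0224 and had no peak within 1 kb of its 13 TSS positions.

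H3K27ac differed between replicates at these genes. HSD17B4, EHHADH, PEX11A and NUDT7 had H3K4me3 at a start in both replicates and H3K27ac in replicate 1 alone, as had SLC25A20 and ETFA. With ACSL1, FABP3 and FABP5, this made 9 of 40 genes with H3K27ac in replicate 1 and not in replicate 2, 22.5% beside 12.5% of all protein-coding genes. None of the 40 had it in replicate 2 alone. Few protein-coding genes did, since 67.6% had it in either replicate and 67.5% in replicate 1. The second H3K27ac list held 38639 peaks of a median 657 bp, beside 57761 of 1357 bp in the first. The paper also lists a much smaller fraction of mapped reads within peaks for its second H3K27ac replicate than for its first. What part these differences have in the 9 genes was not tested. With replicate 1 alone 33 genes had H3K27ac and 30 were active. The H3K4me3-only genes HSD17B4 and ETFA, at a mean FPKM of 29.7 and 30.6, were above the median of the active ones, 17.84. These values count all transcripts. Protein-coding transcripts gave 48.6% and 53.9% of the FPKM of HSD17B4, or 14.1 and 16.4. For ETFA they gave 71.7% and 69.0%, or 21.8 and 21.2.

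**Figure D3:**
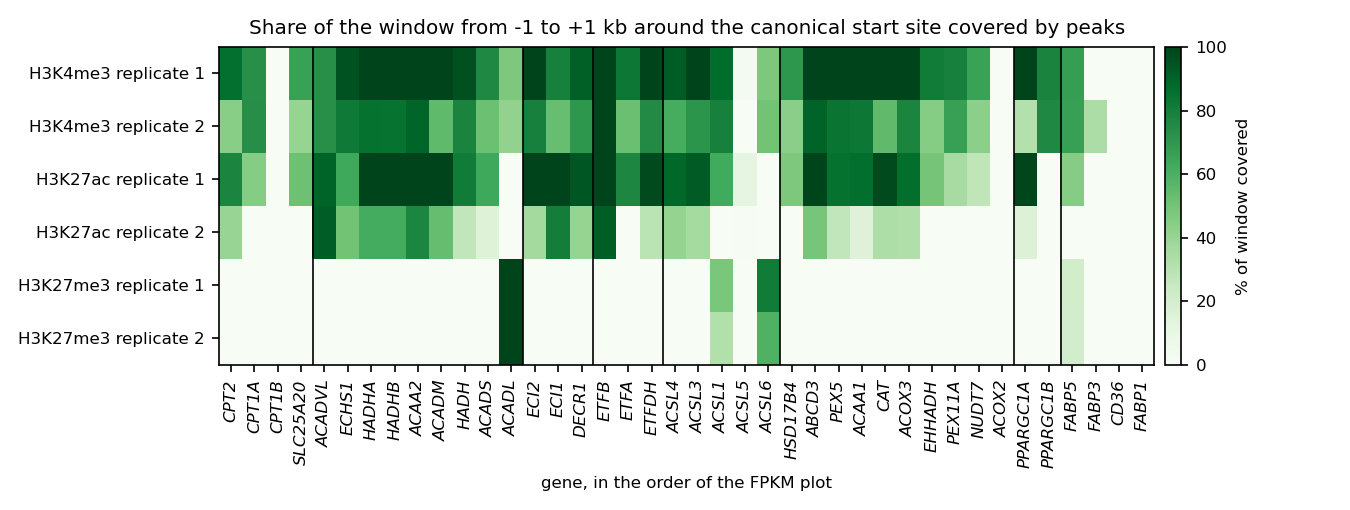
Share of the 2 kb around the canonical start of each gene that peaks cover, from 0 (white) to 100% (dark green), for the 6 peak lists in rows and the 40 genes in columns, with lines between roles. H3K27ac covers less in replicate 2 than in replicate 1 at each gene covered in replicate 1 except ACADVL, and H3K27me3 appears at ACADL, ACSL1, ACSL6 and FABP5.

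PPARGC1A was expressed and its paralogue PPARGC1B was not. PPARGC1A (ENSG00000109819, chromosome 4 from 23756664 to 23905712) had FPKM of 3.01 and 3.08, and PPARGC1B 0.437 and 0.326, so PPARGC1A was above it by 6.89-fold and 9.44-fold. The start of PPARGC1A had H3K4me3 peaks of up to 4112 and 558 bp and H3K27ac peaks of 3017 and 596 bp. The H3K27ac peak of replicate 2 lay 678 bp from the canonical start, and the gene is no longer active with a window of 500 bp. PPARGC1B had H3K4me3 peaks of 3002 and 2833 bp and no H3K27ac peak near a start in either replicate.

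PPARGC1A also held more H3K27ac inside the gene than any other of the 40. Over 1 kb from its TSS positions it had 10 peaks in replicate 1 and 9 in replicate 2, covering 22.03 and 6.321 kb, and 6 of the 10 were overlapped by a peak of replicate 2. They lay between 10.8 and 130.3 kb from the canonical start by their midpoints. Genes with 5 or more such peaks in each replicate made up 3.57% of protein-coding genes and 16.4% of the 3594 genes of at least 100 kb, a group to which PPARGC1A belongs with its 149 kb. CD36 came next in replicate 1 with 8 peaks, but had 1 in replicate 2. No other gene had more than 4 in either replicate.

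Of the uptake and binding genes, FABP5 alone was expressed. FABP5, a fatty acid binding protein of epithelia, had FPKM of 24.7 and 21.9, above FABP3, the heart form, by 26.04-fold and 54.5-fold. FABP3 had 0.947 and 0.402, and the uptake receptor CD36 0.0434 and 0.143. FABP1, the liver form that human proximal tubules are known to make, was listed at 0 in both libraries. FABP5 has 15 annotated pseudogenes, whose FPKM summed to 2.26 and 1.87, so reads may be split among copies. FABP5 (ENSG00000164687, chromosome 8 from 82192771 to 82197012) had H3K4me3 over its start, with H3K27me3 peaks of 824 and 417 bp beginning 585 and 590 bp from it.

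The start sites of FABP1 and CD36 had no peak of any list within 1 kb. The nearest H3K27me3 peaks to the canonical start of FABP1 (ENSG00000163586, chromosome 2 from 88422501 to 88427581) lay 2.02 and 1.90 kb away, inside the gene, and FABP1 counts as marked by H3K27me3 when the window is widened to 2 kb. Its nearest H3K4me3 and H3K27ac peaks were 19.2 kb or more away. FABP3 had H3K4me3 in replicate 2 alone and H3K27ac in replicate 1 alone. The nearest H3K4me3 peaks to the canonical start of CD36 (ENSG00000135218, chromosome 7 from 79998891 to 80308593) were 83.5 and 50.8 kb away. Its nearest H3K27ac peak was 1.73 kb away in replicate 1 and 60.9 kb away in replicate 2.

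Active genes had the highest median level of the classes, among these genes and among all protein-coding genes. All 23 active genes were expressed, beside 92.6% of all active genes, and their median FPKM was 17.84, beside 11.69. Of the other 17 genes 10 were expressed, 58.8%, beside 21.9% of all protein-coding genes without an active start. The 7 genes with H3K4me3 only had a median FPKM of 3.17, beside 2.653. The 4 genes with H3K4me3 and H3K27me3 were divided, since FABP5 and ACSL1 were expressed and ACADL and ACSL6 were not, beside 24% expressed among all genes of this kind. Their median FPKM of 3.263 is the midpoint between ACADL at a mean of 0.0107 and ACSL1 at 6.52, and no gene lay near it. Over all protein-coding genes of this kind the median was 0.1781. On the log10(FPKM + 1) scale, the median of the active genes was 0.751 above that of the other 17, and 1.09 in all protein-coding genes. The order of these differences rests on ChIP-seq replicate 2, since without it they were 1.176 and 1.043, and with peaks of either replicate 1.22 and 1.039. Genes are not replicates, so these differences describe the libraries and were not tested.

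**Figure D4:**
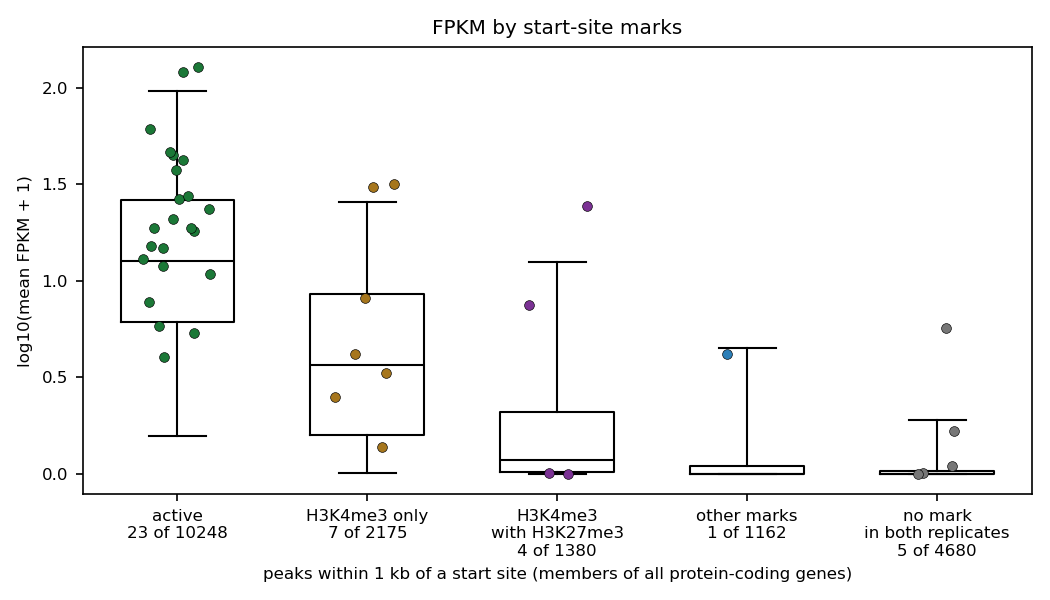
log10(mean FPKM + 1) by marks within 1 kb of a start site. Points are the 40 genes, boxes give the median and quartiles of all protein-coding genes of the class, and whiskers their 5th and 95th percentiles. The points of the active class lie between a mean FPKM of 3.05 and 127, and the class with H3K4me3 and H3K27me3 has 2 points above the box and 2 near 0.

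Peaks over active starts were of ordinary width. The widest H3K4me3 peak at each active gene had a median of 2881 bp in replicate 1 and 1585 bp in replicate 2, beside 2554 and 1557 bp for all active protein-coding genes. For H3K27ac the medians were 2354 and 732 bp, beside 2308 and 971 bp. The replicates differed from each other by more than the genes differed from the background. At CPT1A the H3K27ac peaks of replicate 2 lay 1.98 and 2.62 kb inside the gene and not at its canonical start, so CPT1A is active through another annotated TSS. It is no longer active when only the TSS of its leading transcript is used.

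Most marked starts were rich in CpG, and the unmarked ones lay below the limit used here. CpG content is given as CpG observed over expected, from 250 bases before to 50 after the canonical start in GRCh37. The median was 0.811, beside 0.778 for all protein-coding genes. Of the 23 active genes 21 were at 0.6 or more, beside 90.4% of all active genes, and the other two were PPARGC1A at 0.193 and CAT at 0.577. All 7 genes with H3K4me3 only and all 4 with H3K4me3 and H3K27me3 were at 0.6 or more, beside 79% and 84.3% of their classes. None of the 5 genes with no mark in both replicates reached 0.6, beside 15% of all such genes, and ACSL5 was at 0.342. ACADL and ACSL6, which were not expressed, were at 0.919 and 0.868 by this ratio, while the unmarked FABP1, ACOX2 and CD36 were at 0.374, 0.179 and 0.0855. The other unmarked genes were FABP3 at 0.494 and CPT1B at 0.577, the latter as high as the active CAT. By number of CpG sites in the same stretch, ACSL6 was rich, with 38 at 77.3% GC, and ACADL was not, with 15 at 46.7% GC. FABP3 and CPT1B, with 17 each, and CAT, with 20, held more sites than ACADL although their ratios were below 0.6.

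**Figure D5:**
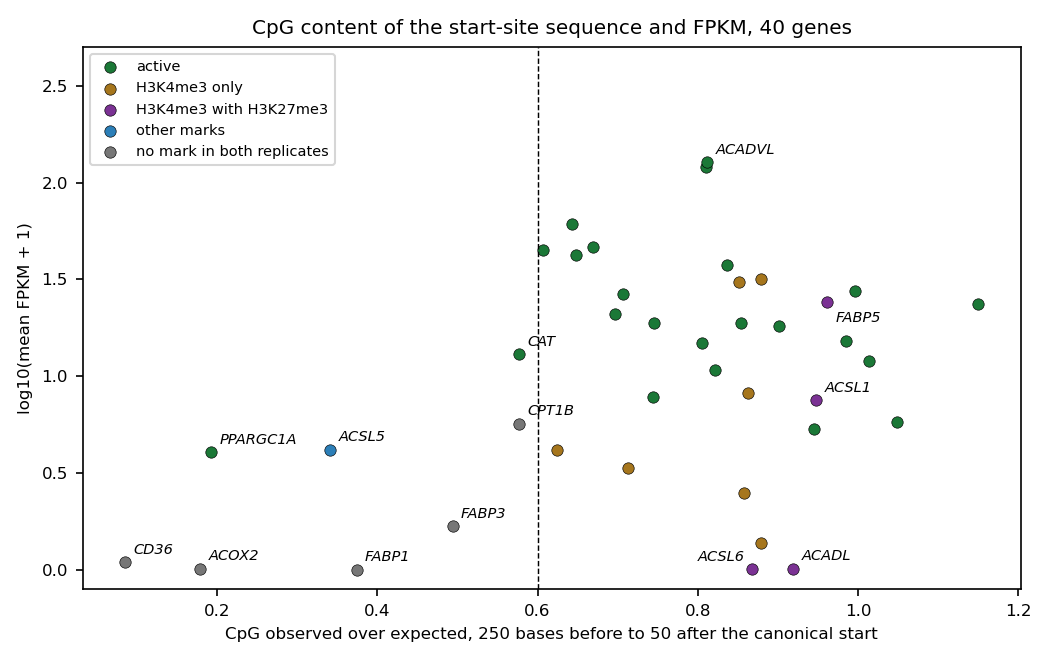
CpG observed over expected around the canonical start against log10(mean FPKM + 1) for the 40 genes, coloured by start-site marks, with a dashed line at 0.6. Unmarked genes lie left of the line, and PPARGC1A and CAT are the active genes to its left.

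Short motifs were searched on both strands of the same 300 bases. TGACGTCA, the cAMP response element, was found in ACOX3 and PPARGC1A, 5% of the 40 genes, beside 2.68% of all protein-coding genes. These 30 bases in GRCh37 show the matches with the motif in capitals, 125 bases before the canonical start of PPARGC1A and 24 before that of ACOX3.
PPARGC1A, chr4:23891784-23891813, minus strand: ctgcctttgagTGACGTCAcgagttagagc
ACOX3, chr4:8442463-8442492, minus strand: gcgcggcgcgtTGACGTCAtggaggcgggg
The consensus of the PPAR response element was found in none of the 40, beside 0.0358% of all, and TCAAGGTCA, the element of estrogen-related receptors, in none, beside 0.184%. The consensus of the NRF1 site was found in none, beside 1.7%. GGGCGG, the GC box, was found in 75%, beside 61.8%, CCAAT in 20%, beside 36%, and TATAAA in FABP1 and FABP5, 5% beside 9.59%. GGGCGG can overlap CpG sites, and a match is a description of letters and not a binding site.

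Further genes of these pathways are set beside the 58.8% expressed and 52.2% active among all protein-coding genes. All 14 other peroxisome biogenesis genes were expressed, led by PEX19, PEX14 and PEX3, with 13 active start sites. Of 27 other peroxisomal enzymes and transporters 23 were expressed, led by PXMP2, ECH1 and GNPAT, and 18 had active start sites. Of 18 other genes listed for mitochondrial fatty acid oxidation and related steps 15 were expressed, led by HSD17B10, ACAD9 and PCCB. Of the 18, 10 had active start sites. PXMP2, a channel of the peroxisomal membrane, had FPKM of 47.3 and 50.4, and HSD17B10, a mitochondrial dehydrogenase, 52.8 and 50.9. PEX19, a chaperone of peroxisomal membrane proteins, had 11.9 and 23.5, well apart between libraries. Of 12 other uptake and binding genes 6 were expressed, led by DBI, VLDLR and SLC27A4, and 3 had active start sites. DBI, the acyl-CoA binding protein, had 111 and 107.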

How the data were processed

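HK2 cells of 1 condition were profiled. For each ChIP-seq replicate the authors used Bowtie2 (hg19) and MACS2, and the 6 lists they deposited hold peak positions and no scores, so the depth behind a peak is unknown. RNA-seq reads were mapped by the authors with HISAT2. The deposited values are FPKM, TPM and coverage per transcript from StringTie 1.3.3. The headers name GENCODE version 27 (GRCh38 coordinates), so genes were joined to the GRCh37 annotation (GENCODE version 44) by Ensembl identifier alone. Strandedness was not given in the sources used here.

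FPKM was summed per gene with Python 3.11.15, numpy 2.4.6 and pandas 2.3.3, and figures were drawn with matplotlib 3.10.9. The pseudocount was 1. One replicate of each mark has no number in the labels and was called replicate 1. No test between groups was possible, and all shares are descriptions. The members and lists were chosen with earlier results of these data known. Every one of the 40 genes is accounted for, and of other lists the 3 highest by mean FPKM are named. Further genes were picked with their values in view. Some genes of the other lists are not reported here. The labels do not say whether replicates were separate cultures. The overlap search was tested on simulated data. Alternatives covered the FPKM limit, TPM, the pseudocount, windows, peak width, replicates and TSS choice.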

Additional observations from a re-analysis of the deposited data

How the results depend on the processing

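Across 60 alternative values, 48 stayed within 1.5 times a main count or within the spread between libraries and 12 moved, and none changed sign. Part of the 48 was fixed in advance, so this number does not measure stability. A count of 33 or 34 of 40 cannot rise 1.5-fold. The spread between libraries came from the single-library values, which are also among the alternatives. The count of genes over 1.5-fold apart was 1, and became 2 with TPM and 0 with no filter and a pseudocount of 1. The median log10 level was 1.094, and became 1.513 with TPM, 1.061 with a pseudocount of 0.1, 1.183 for genes of mean FPKM at least 0.1 and 1.004 with protein-coding transcripts only, an alternative chosen after seeing the data. The difference between active and other genes was 0.7509, and became 0.828 with TPM, 0.8658 with a pseudocount of 0.1, 0.5872 for genes of mean FPKM at least 0.1, 0.8131 with a window of 2 kb and 1.22 with peaks of either replicate, above the 1.039 of all protein-coding genes. Leaving out 1 library or ChIP-seq replicate gave 0.7339 to 1.176, the last without ChIP-seq replicate 2 and above the 1.043 of all protein-coding genes, when H3K27ac-marked genes rose from 24 to 33 and active ones from 23 to 30. Leaving out 1 RNA-seq library gave medians of 1.081 to 1.107. The number of expressed genes was 25 at an FPKM limit of 5 and 32 to 34 under the other alternatives. Peaks of at least 400 bp took ACAA1, ACADS and CAT from the active genes. No paired analysis was possible because there was 1 condition and no test. Depth per peak is unknown.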

Other observations

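Genes of fatty acid synthesis were all expressed. All 15 listed genes passed the FPKM limit of 1, beside 58.8% of all protein-coding genes, and 12 had active start sites, beside 52.2%. Their median FPKM was 24.91, beside 11.43 for the 40 genes. The desaturase SCD had FPKM of 138 and 135, ACLY, which makes cytosolic acetyl-CoA, 129 and 125, and the reductase TECR 86.9 and 74.0. Of the oxidation genes, ACADVL had 137 and 116 and ECHS1 123 and 116. By protein-coding transcripts only, ACADVL had 40.2 and 37.3, while ECHS1 was unchanged. The coding shares of the synthesis genes are not given here.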
